A study of Drosophila melanogaster with 2 samples.

Results

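The Hedgehog and engrailed genes studied here are 6 of the 17683 genes annotated on the chromosome arms of Drosophila melanogaster: hh, ptc, smo, ci, en and inv. They were taken by name from the annotation of the dm6 build. Each reproducible CTCF peak was put with a gene where its summit lay in the gene body, within 1 kb of one of its transcript starts, or within 20 kb outside the body. This gave 21 of the 5443 reproducible peaks. The rule used no measured value, although the genes were chosen with earlier results of these data known.

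CTCF, a zinc finger protein of insulators, was mapped by ChIP-seq in whole embryos collected at 0 to 16 h, of both sexes pooled. All embryos came from 1 transgenic line, strain CTCF-GFP, that stably expresses CTCF with GFP fused to its C terminus, and the chromatin was pulled down with an antibody against GFP. There is 1 group, CTCF-GFP embryo, with 2 samples, biological replicates 2 and 3, and no condition to compare them with. The labels do not say whether untagged CTCF was also present, and a whole embryo mixes cells in which these genes are active with cells in which they are silent. Peak strength is the authors' signal value, which has no stated scale and serves here to order peaks inside each list. The reproducible peaks spanned signals of 195 to 89235, and their median was 345. The sources used here do not give read depth.

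Hedgehog is a secreted signal that the posterior cells of each segment send to their anterior neighbours. Its receptor Patched holds the membrane protein Smoothened in check, and when Hedgehog binds Patched, Smoothened is freed and the zinc finger factor Cubitus interruptus, encoded by ci, turns on target genes, ptc among them. The homeodomain factor Engrailed and its close relative Invected mark the posterior cells, where Engrailed drives hh. The genes en and inv stand next to each other, and their shared domain is a classic target of Polycomb repression in flies.

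At the transcript starts of the 6 genes, taken with 1 kb on either side, there was no reproducible CTCF summit (0 of 6), against 24.4% of all 17683 genes and 27.3% of the 13945 protein-coding ones. With 6 genes, a count of 0 is not far from that share, and the 5443 strongest peaks of each replicate alone gave 1 of 6. In the gene body ptc alone had a summit, 1 gene of 6, against 11.6% of all genes. Outside the body within 20 kb, 4 of the 6 had one, hh, ptc, smo and ci, against 81.2% of all genes. By any part of the rule the count was also 4 of 6, against 82.2%. The counts for the body and the flanks are also not far from the shares of all genes, which were not matched to the members for length or activity. From a gene's start to the nearest summit the distance was 4765 bp for ptc, 5732 bp for smo, 10193 bp for ci, 13904 bp for hh, 21994 bp for inv and 53940 bp for en. Their median was 12048 bp, against a median of 5628 bp over all genes, whose middle 50% ran from 1086 to 15556 bp. The distances of ptc and smo were ordinary, with 46.3% and 50.4% of all genes having a nearer summit, whereas 82.6% did for inv and 95.5% for en.

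**Figure D1:**
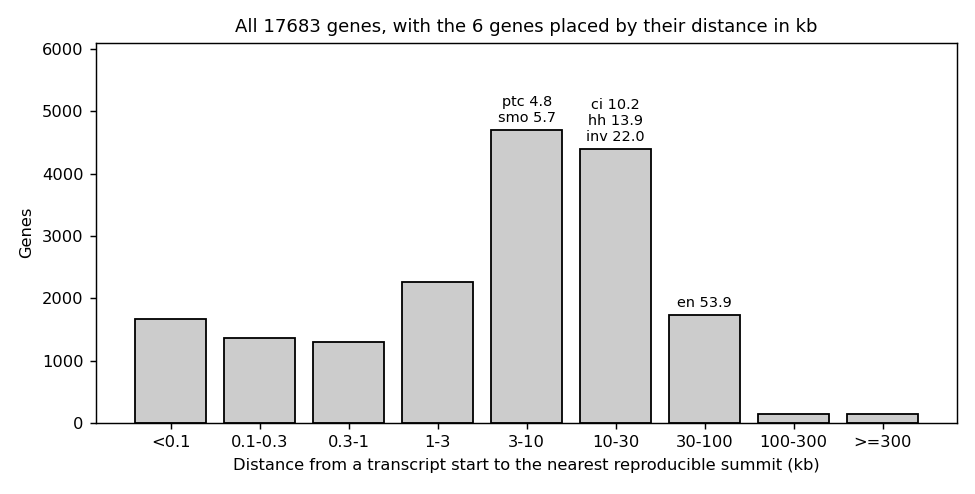
Number of genes (vertical axis) by distance in kb from a transcript start to the nearest reproducible summit (horizontal axis, unequal bins), with the 6 genes written above the bin they fall in. No member falls in the bins below 3 kb, and en, at 53940 bp, is the farthest of the 6.

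The peaks that fell to these genes lay mostly at the starts of their neighbours. Of the 21 peaks 19 (90.5%) had their summit within 1 kb of an annotated start of another gene, against 3415 of all 5443 (62.7%). Their median signal was 406, with extremes of 201 and 12748, and 12 of the 21 were above the median of all reproducible peaks. The 21 listed summits came from 17 separate places once overlapping peaks were merged, and neighbouring summits are not independent. The exact CTCF core, AGNNGGCGC with A or G at the third position and G or T at the fourth, and sought on either strand up to 50 bp from the summit, was in 1 of the 21 peaks against 12.7% of all reproducible peaks. With 1 mismatch allowed it was in 2 of 21, against 24.8%. Among all reproducible peaks the exact core went with strength, being in 50.3% of the 591 peaks with a signal of 3000 or more and in 1.83% of the 2241 below 300. Only 1 member peak reached 3000.

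**Figure D2:**
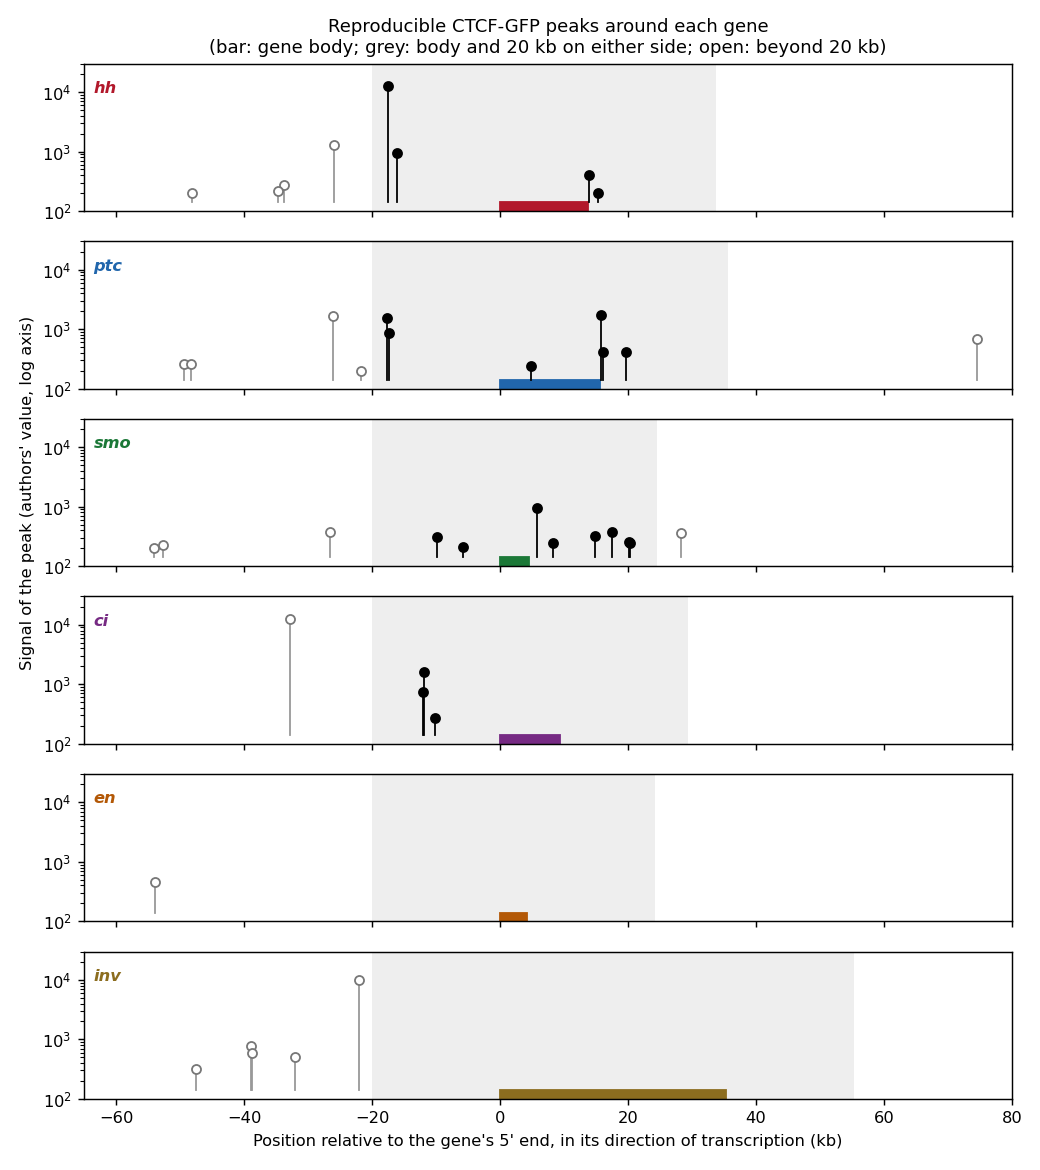
Signal of each reproducible peak (vertical axis, log scale) by position in kb from the 5' end of each gene, in its direction of transcription (horizontal axis), up to 60 kb outside the body. Filled points belong to the gene by the rule and open ones lie beyond 20 kb; en and inv have no filled point, and hh has the tallest, 12748.

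The ligand gene hh (FBgn0004644, 3R from 23128169 to 23141906, minus strand, 1 transcript) had 4 peaks in its flanks and none in its body. Of the 1518 genes at least as long as hh, 51.6% had a summit in the body. Its upstream side carried the strongest peak of any member, at 3R from 23158928 to 23159962, 17593 bp beyond the hh start. That peak had a signal of 12748, rank 253 of 5443, with 6412 in replicate 2 and 6299 in replicate 3. The replicates differed there by -0.03 on the log2 scale (replicate 3 over replicate 2). Over the 5233 reproducible peaks matched in both, this ratio had a median of 0.10 and an SD of 0.42. For peaks with a signal of 3000 or more the SD was 0.13. The summit was intergenic, 183 bp from the start of VhaAC39-2, which encodes a subunit of the vacuolar proton pump. It was the only member peak with an exact core copy, shown here because it marks the strongest site next to a Hedgehog gene. The bases are those 50 bp to either side of the summit, plus strand, chr3R:23159449-23159549, with the core in capitals.

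hh upstream peak: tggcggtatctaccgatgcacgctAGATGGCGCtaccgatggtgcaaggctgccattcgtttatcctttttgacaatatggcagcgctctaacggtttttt

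The core copy centred 22 bp from the summit. A second upstream peak, 16089 bp from hh, lay 133 bp from the start of unk, which encodes the RNA-binding zinc finger protein Unkempt. It had a signal of 960, with 494 in replicate 2 and 474 in replicate 3, and no core copy. On the 3' side, 2 weaker summits lay close to the end of the gene. The nearer, 167 bp past the hh body and 21 bp from the start of CG31457, had a signal of 406, with 200 in replicate 2 and 194 in replicate 3. The other, 1559 bp past the body, was in the 3' UTR of CG31457 and 188 bp from the start of CG31365. It was close to the weakest reproducible signal at 201, and the replicates differed more, at 112 in replicate 2 and 63 in replicate 3. The hh start therefore sat in an interval of 29993 bp between reproducible summits, and 21.9% of the 5437 intervals between neighbouring summits on the arms were longer. Over the arms the median interval was 10089 bp, but intervals at least as long as that of hh made up 63.4% of the arm sequence. In the pooled list of all peaks before thresholding, 2 weak peaks lay in the hh body, with signals of 58.0 and 69.8, against 195 for the weakest reproducible peak.

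The receptor gene ptc (FBgn0003892, 2R from 8649649 to 8665223, plus strand, 1 transcript) was the only member with a reproducible summit inside it. This peak, from 8654196 to 8654631, lay in an intron of ptc, 4765 bp from its start. It was weak, with a signal of 240, rank 4191 of 5443, and both replicates had it at nearly the same strength, 117 in replicate 2 and 111 in replicate 3. Of the 1354 genes at least as long as ptc, 53.1% had a summit in the body. It was also 1 of the 2 member peaks with no transcript start within 1 kb, the other being in an intron of Acsl.

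The stronger ptc peaks stood on either side of the gene. The strongest, 224 bp past the 3' end and 366 bp from the start of Acsl, an acyl-CoA synthetase gene, had a signal of 1745, with 918 in replicate 2 and 817 in replicate 3. A listed summit 425 bp past the end had 416, with 225 in replicate 2 and 206 in replicate 3, and the one in an Acsl intron, 4028 bp past the end, had 406, with 232 and 172 in replicates 2 and 3. The 3' ends of both ptc and hh thus lay close to a summit at the start of the next gene.

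On its upstream side ptc had 2 listed summits in 1 interval, from 8631773 to 8632347, at the start of CG8635. Their signals were 1509 and 864. Replicate 2 had separate summits there, with 824 and 400, and replicate 3 had a single one with 698, which lay within 100 bp of the weaker summit only. The log2 ratio of 0.80 at that summit therefore compared different summits, and it was -0.24 when replicate peaks were matched within 250 bp or by overlap. No ptc peak carried the core, exact or at 1 mismatch, although 4 exact copies lay within 20 kb of the gene. The centres of all 4 were more than 50 bp from any summit, reproducible or weaker. For 1 of them this was narrow, as its centre was 52 bp from a weaker pooled summit. That summit had a signal of 58.7 and lay 1839 bp upstream of the ptc start.

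The gene smo (FBgn0003444, 2L from 277582 to 282167, plus strand, 1 transcript), which encodes the transducer Smoothened, had 8 flanking peaks, the most of any member, and none in its body. It lies among closely packed genes, and each of the 8 summits was within 1 kb of a neighbour's start. They were weak to moderate, from 208 to 967. The strongest, from 283162 to 283475, was 1147 bp past the smo end and 45 bp from the start of CG11601, with 493 in replicate 2 and 479 in replicate 3. It held the core with 1 mismatch, G2A, where positions are counted from 1 at the 5' end of the core and the core's base comes first. The copy is shown with 10 bp on either side, minus strand, chr2L:283297-283325, because its centre was 3 bp from the summit.

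smo downstream copy: gagaaacgtcAAGTGGCGCtatcatatcg

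The other 7 peaks at smo had no copy, and their signals were close to the median of all peaks or below it. Upstream, the summit in the 5' UTR of Dus1, 5846 bp away, had a signal of 208, with 106 in replicate 2 and 91 in replicate 3. The summit 9902 bp upstream, in an intron of Dus1 and 175 bp from the start of CG17075, had 311, with 178 and 119 in replicates 2 and 3. Downstream peaks lay at CG3625 (248), CG11562 (317), Stip1 (379), which encodes a co-chaperone of Hsp70 and Hsp90, and Pi3K21B (259 and 248), which encodes the adaptor subunit of phosphoinositide 3-kinase. At Stip1 replicate 2 had 237 and replicate 3 had 148.

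The transcript start of smo itself was just under the threshold. A weaker pooled peak, in the 5' UTR of the neighbour CG17078 and 171 bp from the smo start, had a signal of 167, rank 6617 of 29999. It had 110 in replicate 2 and 61.5 in replicate 3. Among the 5443 strongest peaks of replicate 2, which end at 99.4, smo was counted as having a peak at its start, and among those of replicate 3, which end at 103, it was not. The reverse held for ptc. A pooled peak 66 bp from its start had a signal of 95.0, and it had 105 in replicate 3 and no matched peak in replicate 2. Each replicate alone thus gave 1 member of 6 with a summit at its start, a different gene each time. Over the whole pooled list 2 of the 6 had a peak within 1 kb of a start, ptc and smo, against 58.3% of all genes. In the whole list of each replicate ci also had 1 such peak. These lists gave 2 of the 6 in replicate 2 and 3 of the 6 in replicate 3, against 58.3% and 58.5% of all genes.

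The gene ci (FBgn0004859, chromosome 4 from 47710 to 57041, minus strand, 3 transcripts with 2 distinct starts) had 3 flanking summits, all upstream. Chromosome 4 is the small, largely heterochromatic arm, and it held 33 reproducible peaks, of which the first was the one nearest to ci, at 67234. No reproducible summit lay between ci and the end of the arm on its 3' side. Of the 114 genes on this arm 12.3% had a summit within 1 kb of a start.

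The strongest ci peak, 11859 bp upstream and 426 bp from a start of pan, had a signal of 1584, with 845 in replicate 2 and 750 in replicate 3. The gene pan encodes TCF, the DNA-binding effector of Wingless signalling. The same interval, from 68561 to 69223, was listed again with a summit 227 bp from that start and a signal of 744. At this second summit the replicates had 146 and 366, a log2 ratio of 1.33, the largest difference between replicates at any member peak. Matched within 50 bp the ratio stayed at 1.33. Matched within 250 bp or by overlap, both replicates gave the values of the stronger summit and the ratio was -0.17. The third summit was 10193 bp from ci and 27 bp from the start of RpS3A, a ribosomal protein gene, and its signal was 269 (replicate 2, 106, replicate 3, 149). No ci peak had the core. The bases around the strongest summit are shown, plus strand, chr4:68850-68950, as an example of a clear peak in both replicates with neither an exact copy nor one at 1 mismatch.

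ci upstream peak: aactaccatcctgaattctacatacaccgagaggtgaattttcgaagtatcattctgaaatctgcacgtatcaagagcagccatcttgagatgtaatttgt

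An exact core copy did lie between ci and these peaks, minus strand, chr4:64103-64131 with its flanks of 10 bp.

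ci upstream copy: taattatcgtAGGTGGCGCtatcctataa

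It was 30 bp from a weaker pooled summit with a signal of 114, rank 10731 of 29999, which had 43.6 in replicate 2 and 73.7 in replicate 3. This copy had no reproducible summit near it. Beyond 20 kb a much stronger summit stood 32849 bp upstream of ci, 465 bp from another start of pan, and its signal was 12497. At the other genes with peaks the first summits beyond the 20 kb limit lay 21807 bp from ptc, with 201, 23610 bp from smo, with 363, and 25952 bp from hh, with 1267.

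The selector genes en (FBgn0000577, 2R from 11524006 to 11528210, minus strand) and inv (FBgn0001269, 2R from 11474465 to 11509695, plus strand), with 2 and 3 transcripts and 2 distinct starts each, had no reproducible peak by any part of the rule. They shared a single interval of 129679 bp without a reproducible summit, from 11452471 to 11582150. Of the 5437 intervals between neighbouring summits 1.75% were longer, which placed it at rank 96. Intervals at least this long made up 16.8% of the arm sequence, and the longest was 2721988 bp. Of the 553 genes at least as long as inv, 62.7% had a summit in the body.

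The interval was bounded by the genes on either side. On the inv side the bounding summit, 21994 bp from inv and so just outside the 20 kb limit, lay in an intron of E(Pc), 282 bp from one of its starts. E(Pc) encodes a chromatin protein first found as an enhancer of Polycomb mutations. Its peak had a signal of 10069, rank 324 of 5443, with 4971 in replicate 2 and 5124 in replicate 3, and it held an exact core. On the en side the bounding summit, 53940 bp from en, lay in an intron of tou, 485 bp from a start. The gene tou encodes a chromatin remodelling protein of the Trithorax group. This peak was much weaker, and its signal was 457 (replicate 2, 182, replicate 3, 249), and had no core. A strong motif-bearing site thus stood on the inv side and a moderate site without the motif on the en side. Both edges were found in each replicate alone: among the 5443 strongest peaks of replicate 2 the interval was 129661 bp, with 4971 and 182 at its edges, and among those of replicate 3 it was 129671 bp, with 5124 and 249. Besides en and inv the interval held 1 other gene start, of E(Pc).

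Within the interval the pooled list had 8 weaker peaks, or 6.17 per 100 kb. Over the arms the pooled peaks below the 5443 strongest came to 18.3 per 100 kb, a rate without the peaks that the interval lacks by its definition. The 2 rates were not matched for gene starts, and 3 genes had a start inside the interval. The highest of the 8 had a signal of 104, rank 12072 of 29999, and was 7242 bp from a start of en, in the intergenic DNA between en and inv, with 60.2 in replicate 2 and 55.1 in replicate 3. Another intergenic peak, 10025 bp from the same start, had 94.2, with 42.3 and 46.9 in replicates 2 and 3. The third that both replicates had was in an inv intron, 6689 bp from an inv start, with 95.3 in the pooled list, 39.3 in replicate 2 and 44.9 in replicate 3. The other 5 were matched in 1 replicate or neither. That all 8 lay below the weakest reproducible signal, 195, follows from how the interval was defined. None was within 1 kb of a start of en or inv. The interval held 3 exact core copies, 2.31 per 100 kb, against 2.19 per 100 kb over the arms. None of the 3 was within 50 bp of a pooled summit, the nearest being 4755 bp from one. That none was near a reproducible summit follows from how the interval was defined. Over the arms 858 of the 2929 copies had a pooled summit within 50 bp, a count that includes reproducible summits. For that reason, and with 3 copies, these counts cannot be compared.

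**Figure D3:**
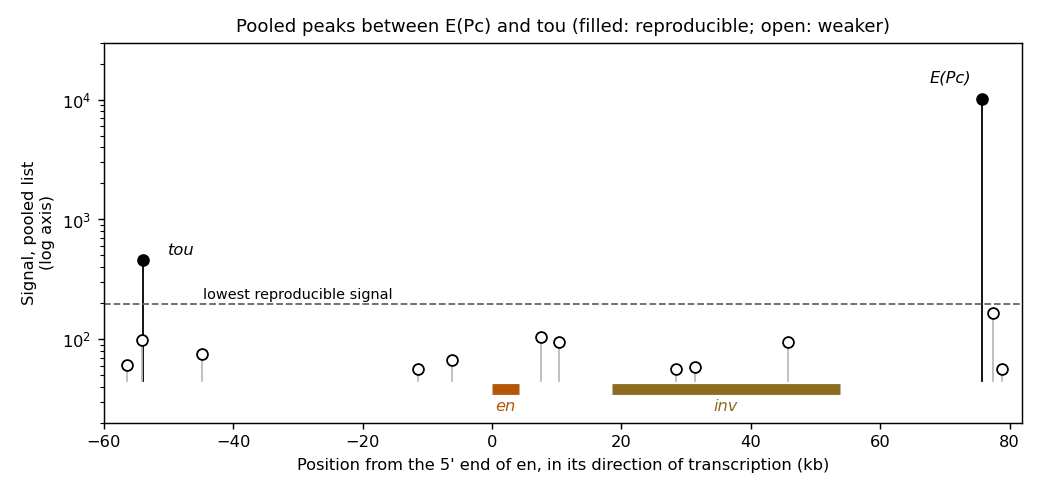
Signal in the pooled list (vertical axis, log scale) by position in kb from the 5' end of en (horizontal axis), with the bodies of en and inv as bars and the lowest reproducible signal, 195, as a dashed line. Filled points are reproducible peaks, at E(Pc) (10069) and tou (457), and all open points are weaker peaks under the line.

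Agreement between the replicates varied among the member peaks. In both replicates 19 of the 21 peaks had a counterpart no more than 100 bp away, and at 13 of these the log2 ratio was within 1 SD (0.42) of its median over all peaks, 0.10. The ratios ran from -0.82, at the weak summit near CG31365, to 1.33, at the second pan summit. That summit (744) and the weaker CG8635 summit (864, ratio 0.80) were stronger than 75.5% and 77.9% of all reproducible peaks. Within 250 bp or by overlap these ratios were -0.17 and -0.24, but such a match takes the strongest peak nearby. At pan that was the other summit. Within 50 bp the pan ratio stayed at 1.33, and the CG8635 summit had no ratio. The wider match therefore does not show how far the replicates differed at these summits themselves. Over all reproducible peaks the SD of the ratio was 0.54 for signals below 300 and 0.13 for signals of 3000 or more. The 2 peaks without a match in replicate 3 were the stronger CG8635 summit and a Pi3K21B summit, with 824 and 155 in replicate 2. Both had a replicate 3 peak within 250 bp.

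**Figure D4:**
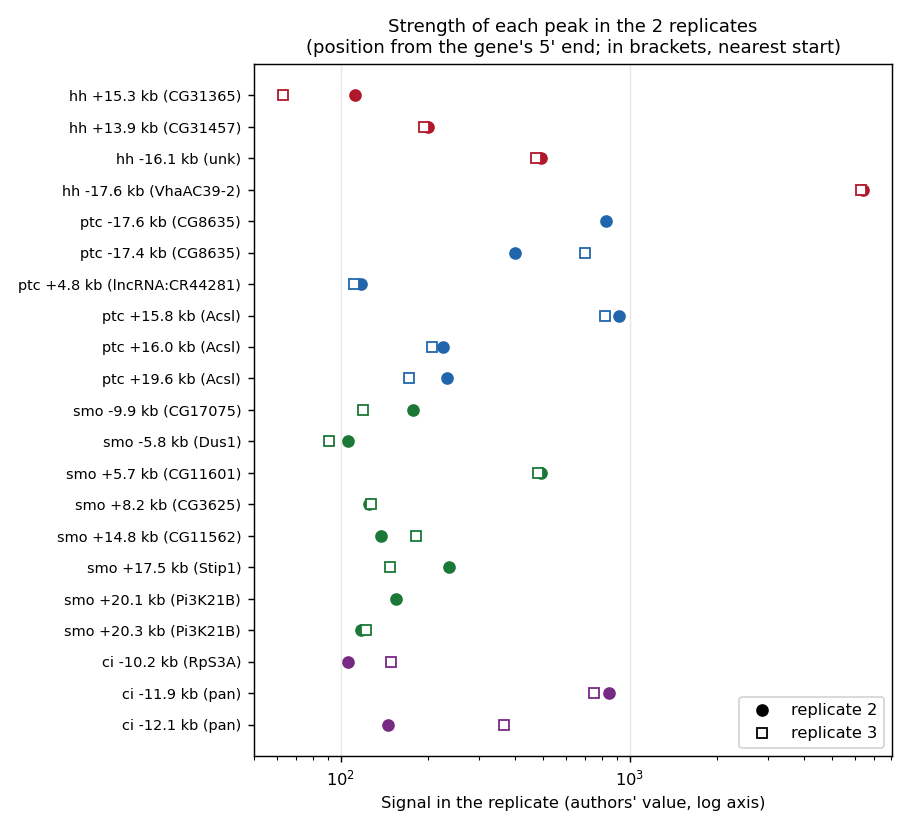
Signal in replicate 2 (filled circles) and replicate 3 (open squares) on a log axis for each of the 21 peaks, named by gene, position from its 5' end and the gene of the nearest start. The symbols nearly coincide at the VhaAC39-2 peak (6412 and 6299) and lie farthest apart at the second pan summit (146 and 366).

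Of motifs bound by other factors, searched in the same windows and on both strands, DRE (TATCGATA) was in 1 of the 21 peaks, the one at CG31457 next to hh, against 2.83% of all reproducible peaks. Motif 1 (GGTCACAC) was in none, against 2.48%. GAGAG, the short form of the GAGA factor site, was in 3 peaks, at pan, CG31457 and CG11562, against 11.1%. GCCAT, the short form of the site of the Polycomb recruiter Pho, was in 6, against 22.6%. The sites with GCCAT were at VhaAC39-2, CG31457, CG31365, CG8635, pan and Pi3K21B. With 21 peaks these counts are too small to set apart from the shares of all peaks.

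Other genes of the pathway were looked up beside the 6, in a list of 38. Of these 17 (44.7%) had a reproducible summit within 1 kb of a start, against the 24.4% of all genes and 27.3% of the protein-coding ones. The list mixes genes of general cell physiology with genes specific to the pathway and holds the neighbours E(Pc) and tou, and no test was made on it. Peaks were at 5 of the 6 kinase genes, dco, sgg, Gprk2, gish and CkIalpha, and absent only at Pka-C1, the protein kinase A catalytic subunit. The dco gene, a casein kinase that phosphorylates Ci and clock proteins, had a signal of 57257, rank 5 of 5443, with 26690 in replicate 2 and 30603 in replicate 3, and 3 exact cores around its intergenic summit. The gene sgg, encoding the GSK3 kinase that acts on Ci and on Wingless signalling, had 2452, with 1171 in replicate 2 and 1283 in replicate 3, at a summit in coding sequence. Its core copy is shown beside those of dco, each with 10 bp on either side. These were the exact copies at the strongest start summits of the kinase genes. Of the 4 sgg summits within 1 kb of a start, the strongest alone is described here.

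sgg, minus strand, chrX:2659646-2659674: acttgccgccAGGTGGCGCttgtggcaga
dco, minus strand, chr3R:31061499-31061527: ctcatccgctAGGTGGCGCagctcaaaaa
dco, plus strand, chr3R:31061536-31061564: agtggtatccAGGTGGCGCccgaaacaaa
dco, plus strand, chr3R:31061555-31061583: ccgaaacaaaAGGTGGCGCcttatttcag

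All 4 read AGGTGGCGC in the core, as did the weak copy upstream of ci, whereas the copy upstream of hh read AGATGGCGC. The remaining kinases had moderate or weak peaks without an exact core: Gprk2, a receptor kinase that phosphorylates Smoothened, had 1102, although its summit was nearest to the start of PNPase, gish had 628 and CkIalpha had 376.

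Of the 4 ubiquitin ligase genes 3 had a peak. Cul1, the cullin of the ligase that trims Ci, had 2165, with 1141 in replicate 2 and 1029 in replicate 3. The gene slmb, its F-box partner, had 670, and rdx, which encodes a substrate adaptor of the Cul3 ligase, had 342. In the complex that holds Ci in the cytoplasm, cos and Su(fu) had peaks of 478 and 498 and fu had none, but both summits were shared with another gene, being nearest to Dhx15 and Arp1. Among the 8 genes for release and spread of the ligand, ttv (292) and sotv (233), which make heparan sulphate chains, had peaks. Of the 2 co-receptor genes boi had one (241) and ihog had none. These last 3 were weak, below the median of all peaks.

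The shares among targets and regulators were close to the 24.4% of all genes. Of the 4 targets, wg, dpp, kn and rdx, only rdx had a peak at a start. Of the 10 regulators and cofactors of Engrailed 2 had one: prd, a pair-rule gene that helps activate en, with 2562, 1152 in replicate 2 and 1420 in replicate 3, and gro, the co-repressor, with 509. Both neighbours of the engrailed domain had one. These were the summits given above that bound the interval of en and inv, so this is not a separate result.

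**Figure D5:**
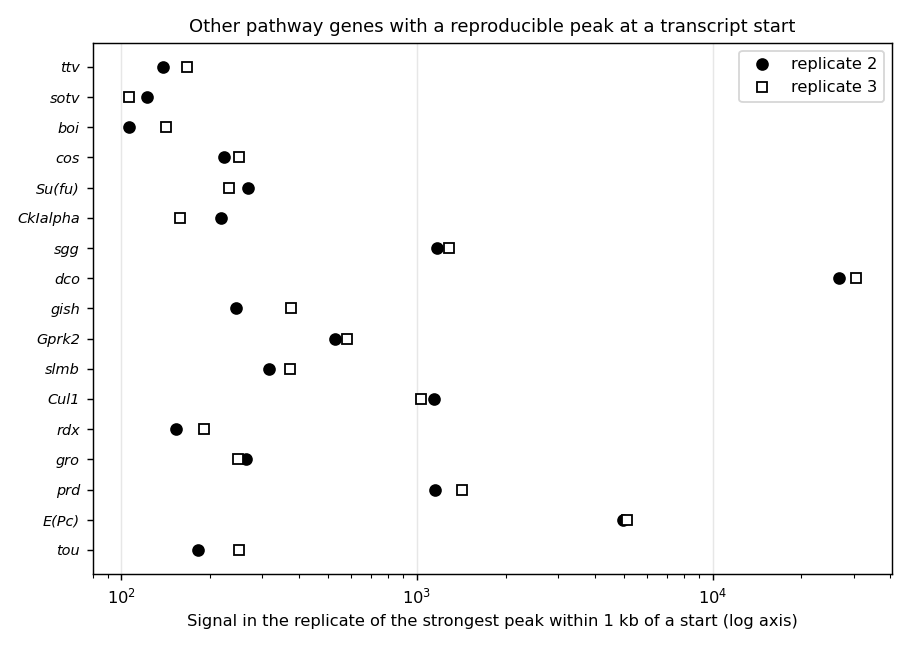
Signal in replicate 2 (filled circles) and replicate 3 (open squares) on a log axis, for the strongest summit within 1 kb of a start of each of the 17 pathway genes that had one. The dco gene stands highest (26690 and 30603), followed by E(Pc) (4971 and 5124).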

How the data were processed

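Embryos of 1 group, in 2 biological replicates, were profiled by ChIP-seq with sonicated chromatin of 200 to 800 bp per the labels. The authors deposited peak lists with a signal score per peak: per the notes deposited with the samples, these are unthresholded lists for either replicate and for the pool of both, and the peaks kept at the authors' IDR (irreproducible discovery rate) threshold, all on dm6. Peak caller, aligner and depth count as not given in the sources used here. The control library and the dm3 lists were not used. The unthresholded lists hold 30000 peaks in replicate 2 and 29999 on the arms in replicate 3 and in the pooled list.

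Summits were placed, 1-based, against Ensembl release 115 (BDGP6), using 17683 FlyBase genes and leaving out 6290 other entries. A reproducible peak was matched to the strongest summit of a replicate within 100 bp. With 1 group no test was made, and shares over all genes or peaks stand beside each count. Spread is that between 2 samples. The named genes were the 6 members, the gene nearest to each of their peaks, and the genes of a pathway list with a peak at a start. Members and lists were chosen with earlier results of these data known. Alternatives were other distances, motif forms, peak lists and matches. The rules were tested on planted data, and all 16 checks passed. Sequences are from the RefSeq genome of this build. Python 3.11.15 was used with numpy 2.4.6 and matplotlib 3.10.9.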

Additional observations from a re-analysis of the deposited data

How the results depend on the processing

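Of 51 counts and intervals under other settings, 15 moved by more than 1.5 times. Leaving out replicate 2 or replicate 3 gave 1 member with a summit at its start in each case, ptc without replicate 2 and smo without replicate 3, against 0 with both. With the strongest 2721 reproducible peaks, 0 members had a summit in the body and 12 peaks were assigned to the members. With all peaks of the pooled list, 2 members had a summit at a start and 4 had one in the body. There 86 peaks were assigned, 34 pathway genes had a summit at a start and 2 member peaks had the core. In that list the interval that holds the en start shrank to 13742 bp, and inv lay outside it. The alternatives for this interval were chosen after seeing the data. Any overlap of a peak with the body gave 2 members, the second being hh through its 3' end. Flanks of 10 kb gave 10 peaks and flanks of 50 kb gave 37. Within 200 bp of a start 11 pathway genes had a summit, and 2 member peaks had the core at up to 1 mismatch. With the strongest 2721 peaks, with merged peaks and in the 5443 strongest peaks of each replicate, en and inv had no peak by any part of the rule. With all peaks of the pooled list en had 4 and inv had 5, some of them shared. Of 53 log2 ratios under other matches 49 moved by less than 1 SD, and the other 4 were at the summits near CG8635 and pan given above. No paired analysis was possible because there is 1 group. Read depth, not given here, limits how the weak peaks can be read.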
